A study of Mus musculus with 4 samples.

Results

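Genes of retinoid metabolism and the retinoic acid response were examined in RNA-seq of mouse embryonic fibroblasts (MEFs) with and without *Phf2*, which encodes a Jumonji-C family histone demethylase. The genes were chosen by name: the nuclear receptors *Rarb* and *Rarg*, the retinal dehydrogenases *Aldh1a1* and *Aldh1a2*, the binding proteins *Crabp1* and *Crabp2*, the carrier *Rbp4*, its receptor *Stra6*, and the retinoic acid hydroxylase *Cyp26b1*. All 9 were found among the 24391 gene symbols of the count table. Primary MEFs from E13.5 embryos were arrested in quiescence, and 2 WT and 2 *Phf2* KO libraries were sequenced. By the labels, all 4 carried *Phf2* flox/flox and ERCre/+, a CreERT2 recombinase driven from the Rosa26 locus in every cell, so the WT libraries also carried the floxed alleles and Cre. Tamoxifen was labelled for the *Phf2* KO libraries alone. The deletion protocol names 0.5 µM 4-hydroxytamoxifen (4-OHT) for 7 days in Opti-MEM with 2% charcoal-treated serum, and the medium of the WT libraries was not stated separately. Charcoal treatment strips small lipophilic molecules, retinoids among them, from serum. Loss of *Phf2*, Cre activity, 4-OHT and any difference in medium therefore cannot be told apart here.

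Retinol circulates bound to Rbp4, enters some cells through Stra6, is oxidised reversibly to retinal and then irreversibly to retinoic acid by Aldh1a enzymes, and is cleared by Cyp26 enzymes. Retinoic acid binds retinoic acid receptors (RARs), which pair with retinoid X receptors (RXRs) on DNA at retinoic acid response elements. *Rarb*, *Crabp2*, *Stra6*, *Dhrs3* and the Cyp26 genes are commonly used as readouts of retinoic acid. In the embryo this pathway patterns the limbs, hindbrain and body axis, and fibroblasts keep parts of it.

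A retinoic acid response element was searched for in the promoters of these genes, because *Rarb* is the textbook case of a receptor gene that its own ligand induces. The element was defined as a direct repeat of half-sites (AGGTCA or AGTTCA, or the same with GG in place of the first AG: GGGTCA and GGTTCA) with 5 bases between them, on either strand, in windows of 300 bases from RefSeq (250 before and 50 after each start, GRCm38.p6). Windows were given for 8 of the 9 genes, and *Crabp2* had none. Of 32851 windows, 32 held the element (0.0974%). Among the 9 genes only *Rarb* did, and among 51 other retinoid genes with a window only *Cyp26a1* did. With 1 or 2 bases between the half-sites, 0.222% and 0.268% of windows had a match, none of them in the 9 genes. The 120 bases before the start are shown for both genes, 5′ to 3′ in the direction of the gene, with the element in capitals. They were placed on NCBIM37 (mm9) by exact match, for *Rarb* at chr14:17407991-17408110 on the reverse strand and for *Cyp26a1* at chr19:37772178-37772297 on the forward strand.
Rarb: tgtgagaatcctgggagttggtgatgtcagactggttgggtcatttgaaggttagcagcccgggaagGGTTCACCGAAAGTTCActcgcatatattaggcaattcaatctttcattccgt
Cyp26a1: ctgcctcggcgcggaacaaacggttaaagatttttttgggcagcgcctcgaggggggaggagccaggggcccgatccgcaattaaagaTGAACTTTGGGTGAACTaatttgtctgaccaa
The *Rarb* start is that of a shorter RefSeq transcript and lies inside the mm9 gene model, which itself begins at 17651381, whereas counts cover the whole gene. The *Rarb* element lies 53 to 37 bases before this internal start and reads along the gene, and the *Cyp26a1* element lies 32 to 16 bases before the start and reads as a repeat on the opposite strand. A match describes the letters of the window and not binding. Both genes with the element were counted rarely in all 4 libraries, *Rarb* 12 and 15 times per WT library against 8 and 15 times per *Phf2* KO library, and *Cyp26a1* 2 and 2 times per WT library against 0 and 3 times per *Phf2* KO library.

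The libraries held between 21094743 and 26094268 counts, and *Phf2* itself had 3244 and 3680 counts per WT library against 1454 and 2158 per *Phf2* KO library. The *Phf2* RNA level of the KO libraries, counted over the whole gene, was 57.9% of that in WT. It does not measure the protein. In *Phf2* KO MEFs the study reported depletion of the Phf2 protein and absence of almost all its binding peaks. Levels are given as CPM, which are counts scaled to a common library size by TMM, and the detection limit of 3 counts equalled 0.116 to 0.145 CPM, a bound on counting error only. All 12 fibroblast markers checked were detected in every library, with *Col1a1* counted at least 452469 times. Their summed level was 71098 and 76264 CPM in WT and 65371 and 63020 CPM in *Phf2* KO MEFs. The 13 macrophage markers, all detected, summed to 3603 and 787 CPM in WT replicates 1 and 2 and to 4116 and 1244 CPM in *Phf2* KO replicates 1 and 2. That sum was higher in *Phf2* KO within each number, but not every marker followed it in replicate 1. *Lyz2* had 31934 and 8169 counts in WT replicates 1 and 2 against 35761 and 13796 in those of *Phf2* KO. *Adgre1* had 2645 and 427 against 1702 and 555. Of 8 hepatocyte markers 5 had at most 3 counts in any library, *Alb* among them. *Xist*, the RNA that coats the silenced X chromosome, was counted 10042 times in WT and 8336 times in *Phf2* KO replicate 1, and 3 and 12 times in the replicates numbered 2, and Y-linked genes followed the opposite pattern, so the replicate numbers also differed in sex, alike in both groups. The labels do not say which libraries came from separate embryos, so p-values measure only the spread between these libraries.

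The 9 genes spanned a wide range of abundance. Levels between genes were compared as RPKM (CPM per kilobase of exon, on mm9 gene models), as the mean and SD over the 4 libraries of both groups. *Rarg*, the receptor isotype common in skin and mesenchyme, was highest at 21.9 ± 2.04 (SD, n = 4) RPKM. *Aldh1a1* followed at 19.0 ± 2.52 (SD, n = 4) RPKM, and the ranges of these 2 genes overlapped. *Crabp1* at 2.92 ± 1.07 (SD, n = 4) and *Crabp2* at 2.13 ± 0.365 (SD, n = 4) RPKM overlapped each other, and so did *Cyp26b1* at 1.31 ± 0.192 (SD, n = 4) and *Aldh1a2* at 1.24 ± 0.140 (SD, n = 4) RPKM. The lowest were *Rbp4* at 0.239 ± 0.161 (SD, n = 4), *Rarb* at 0.158 ± 0.0317 (SD, n = 4) and *Stra6* at 0.0198 ± 0.00627 (SD, n = 4) RPKM, of which *Rbp4* and *Rarb* overlapped and *Stra6* stood below both. The order therefore falls into 5 steps that do not overlap across libraries.

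**Figure D1:**
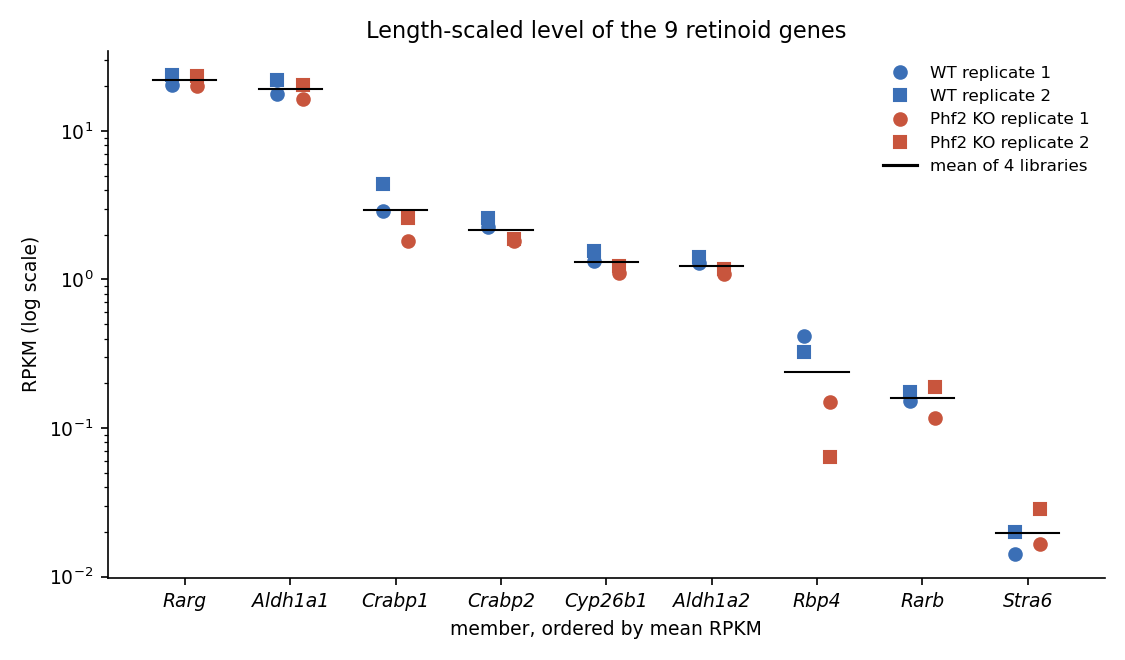
Level of each of the 9 retinoid genes in RPKM on a log axis, ordered by the mean of 4 libraries (line), with WT in blue, *Phf2* KO in red, circles for replicate 1 and squares for replicate 2. *Rarg* and *Aldh1a1* sit between 16.3 and 23.8 RPKM, and *Stra6* sits between 0.0142 and 0.0285 RPKM.

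None of the 9 genes was called between genotypes, and the fold changes of the 8 tested were below 0, by little in *Rarg* and by most in *Rbp4*. The test was the quasi-likelihood test of edgeR over 13668 genes, and a gene was called where its p-value after Benjamini-Hochberg adjustment was under 0.1. Of the 9 genes 8 were tested, and 0 were called, where the background was 0.00732% of all genes tested. DESeq2 and limma-voom called 0 as well. At an unadjusted p-value under 0.05, 1 of the 8 (*Rbp4*) was lower in *Phf2* KO MEFs and 0 were higher, against 2.67% and 1.54% of all genes tested. All 8 had the same adjusted p in edgeR, 0.999. Their log2 fold changes were all below 0, from -1.79 to -0.02 with a median of -0.28, while 48.8% of all genes tested were below 0 and the median of all was 0.01. Leaving out WT replicate 2 or *Phf2* KO replicate 1 turned *Rarb*, *Rarg* and *Aldh1a1* above 0. For 5 of the 8 both *Phf2* KO libraries lay below both WT libraries and for 0 above, against 18.0% and 15.5% of all genes tested. Blocking edgeR on the replicate number called 2 of the 8, *Crabp1* and *Rbp4*, both lower, where 11.0% of all genes tested were called, 5.20% lower and 5.77% higher. The labels state no pairing of the numbers. DESeq2 with that block, added after the data were seen, gave an adjusted p to *Rarg* and *Aldh1a1* alone and called neither, where 3.67% of the genes it adjusted were called. *Rbp4* passed the filter on low counts through the WT libraries alone and so had to differ, and these counts are given as a description of the 8 genes. The summed level of fibroblast markers given above was also lower in both *Phf2* KO libraries than in both WT libraries. Most of that sum came from *Col1a1*, *Col1a2* and *Col3a1*, and the median log2 fold change of the 12 markers was -0.12. Not all of them followed the sum. *Fbln2* had 61955 and 76422 counts in WT replicates 1 and 2 against 64331 and 63759 in those of *Phf2* KO, and *Pdgfrb* 16535 and 23387 against 16770 and 21487. The 4 markers of stellate cells, which store retinoids, summed to 54.8 and 25.2 CPM in WT replicates 1 and 2 against 33.0 and 15.7 CPM in those of *Phf2* KO, mostly from *Des*, with *Lrat* at no more than 1 count. The 6 endothelial markers summed to 22.0 and 11.8 CPM against 16.3 and 9.28 CPM, mostly from *Kdr*, with *Tie1* at 0 throughout. *Tek* had 79 and 71 counts per WT library against 67 and 76 per *Phf2* KO library, *Pecam1* 4 and 2 against 4 and 5, and *Cdh5* 4 and 0 against 6 and 6. The stellate and endothelial sums were lower in *Phf2* KO within each replicate number while the groups overlapped. The 7 neural markers summed to 84.3 and 93.0 CPM in WT against 99.4 and 106 CPM in *Phf2* KO. The part of these marker levels in the result was not tested. In bulk RNA, fewer cells of a type and less RNA per cell cannot be told apart.

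**Figure D2:**
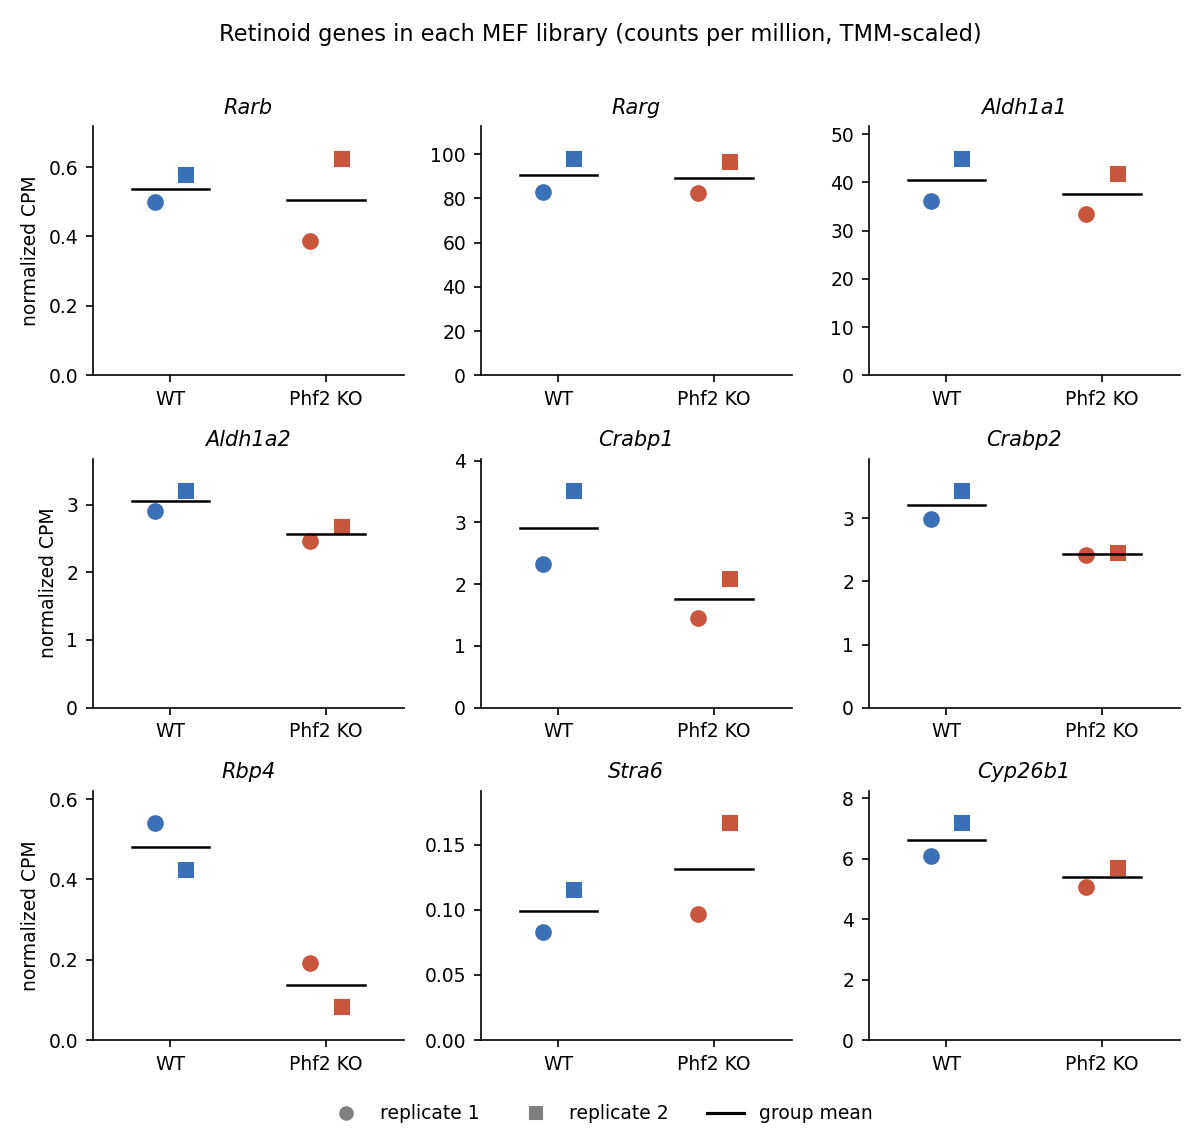
Normalized CPM of each retinoid gene in each library, on axes that start at 0 and differ between panels, with WT in blue, *Phf2* KO in red, circles for replicate 1, squares for replicate 2 and a line at the mean of each group. For *Crabp1*, *Crabp2*, *Cyp26b1*, *Aldh1a2* and *Rbp4* both *Phf2* KO libraries lie below both WT libraries, and for *Rarb*, *Rarg*, *Aldh1a1* and *Stra6* the groups overlap.

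*Rbp4* encodes the serum retinol-binding protein (chromosome 19, 38191110 to 38199811, reverse strand). Positions of this and the other genes are on mm9. It had 13 and 11 counts per WT library against 4 and 2 per *Phf2* KO library. Both *Phf2* KO libraries were thus close to the limit of detection, and both WT libraries above it. Normalized, the level was 0.482 ± 0.0816 (SD, n = 2) CPM in WT against 0.138 ± 0.0777 (SD, n = 2) CPM after deletion of *Phf2*. The ratio of the summed counts, 6 against 24, was 0.280 after scaling, with an exact 95% interval from 0.0935 to 0.702 that covers counting error only. The fitted log2 fold change was -1.79 with a standard error of 0.62. Because *Rbp4* entered the test through the WT libraries alone, its direction was fixed by the filter. Neither the interval nor a p-value is therefore read as evidence of a difference. Leaving out *Phf2* KO replicate 1 gave -2.46 and leaving out *Phf2* KO replicate 2 gave -1.30. Liver makes most serum Rbp4, and the hepatocyte markers summed to between 0.874 and 1.58 CPM, with *Fgb* and *Serpina1a* at 0 in every library. Over the 10528 genes averaging 100 or more counts, those whose log2 CPM, centred over the 4 libraries, lay nearest to that of *Rbp4* were *Tspan11* (distance 0.368 log2 units), *Lgi2* (0.371) and *Ednrb* (0.422). The *Rbp4* values rest on the few counts above, with 2 added to each, and their direction was fixed by the filter. The ranking therefore favours genes lower in *Phf2* KO, and no shared regulation is read from it.

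*Stra6* encodes the membrane receptor that takes retinol from Rbp4 and lies on chromosome 9 from 57911595 to 58001803, where it overlaps the annotated genes Gm16131 on the same strand and *Ccdc33* on the other. It had 2 and 3 counts per WT library against 2 and 4 per *Phf2* KO library, at or next to the limit of detection in every library. It did not pass the filter on low counts, and no fold change is given.

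*Crabp1* and *Crabp2* encode intracellular binding proteins for retinoic acid. Crabp2 delivers the ligand to RARs, and Crabp1 is thought to hold it in the cytoplasm. *Crabp1* (chromosome 9, 54612555 to 54620917, forward strand) had 56 and 91 counts per WT library against 30 and 50 per *Phf2* KO library. Normalized, it was 2.32 and 3.51 CPM in WT and 1.45 and 2.08 CPM in *Phf2* KO MEFs, so the groups did not overlap but the WT libraries lay further apart than the gap between the groups. The *Phf2* KO mean was 60.5% of the WT mean. The log2 fold change was -0.72 (standard error 0.34, 95% interval -1.63 to 0.19). It was -0.41 without WT replicate 2 and -1.01 without *Phf2* KO replicate 2.

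*Crabp2* (chromosome 3, 87752588 to 87757298, forward strand) had 72 and 89 counts per WT library against 50 and 59 per *Phf2* KO library, or 3.21 ± 0.313 (SD, n = 2) CPM against 2.43 ± 0.0291 (SD, n = 2) CPM. The *Phf2* KO libraries were nearly alike, and both lay below the lower WT library. The log2 fold change was -0.40 (standard error 0.22, 95% interval -0.98 to 0.18).

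*Cyp26b1* encodes a cytochrome P450 that inactivates retinoic acid and lies on chromosome 6 from 84521938 to 84543740 on the reverse strand. It had 147 and 186 counts per WT library against 105 and 137 per *Phf2* KO library, or 6.63 ± 0.756 (SD, n = 2) CPM against 5.38 ± 0.446 (SD, n = 2) CPM. Both *Phf2* KO libraries were below both WT libraries, with a log2 fold change of -0.30 (standard error 0.19, 95% interval -0.79 to 0.19). It was -0.19 without WT replicate 2. The other enzymes of this family were hardly counted, *Cyp26a1* at most 3 times and *Cyp26c1* at most 1 time in any library, so that *Cyp26b1* carried nearly all Cyp26 counts in these MEFs.

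Retinal is oxidised to retinoic acid by the enzymes encoded by *Aldh1a1*, *Aldh1a2* and *Aldh1a3*, of which *Aldh1a2* is the main one in embryonic mesoderm. *Aldh1a1* (chromosome 19, 20676451 to 20717952, forward strand) had 873 and 1166 counts per WT library against 694 and 1002 per *Phf2* KO library, or 40.6 ± 6.16 (SD, n = 2) CPM against 37.6 ± 5.79 (SD, n = 2) CPM. The groups overlapped, and the log2 fold change of -0.11 (standard error 0.17, 95% interval -0.56 to 0.34) turned to 0.04 without WT replicate 2 and without *Phf2* KO replicate 1. Of its 2004 distinct 50-base stretches, the length of a read, 151 (7.53%) also occur in the neighbouring paralog *Aldh1a7*, so a small part of its reads may have been lost or shared. The other 8 genes shared none with another protein-coding gene.

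*Aldh1a2* (chromosome 9, 71063596 to 71144050, forward strand) had 70 and 83 counts per WT library against 51 and 64 per *Phf2* KO library, or 3.05 ± 0.208 (SD, n = 2) CPM against 2.56 ± 0.142 (SD, n = 2) CPM. The groups did not overlap, and the log2 fold change was -0.25 (standard error 0.22, 95% interval -0.82 to 0.32). Mesothelium is another source of *Aldh1a2*, and the 6 mesothelial markers found summed to 32.2 and 29.1 CPM in WT and 31.5 and 29.9 CPM in *Phf2* KO MEFs. *Aldh1a3* had 74 and 234 counts per WT library against 72 and 180 per *Phf2* KO library, with a log2 fold change of -0.14 (standard error 0.64), and *Aldh1a7* 34 and 43 times per WT library against 28 and 52 times per *Phf2* KO library.

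*Rarg* (chromosome 15, 102065369 to 102087948, reverse strand) was the best counted of the 9 genes, with 1998 and 2542 counts per WT library against 1709 and 2317 per *Phf2* KO library. Normalized, it was 82.9 and 98.0 CPM in WT and 82.5 and 96.4 CPM in *Phf2* KO MEFs, so that the replicates of each group differed far more than the groups did. The log2 fold change was -0.02 (standard error 0.13), with a 95% interval from -0.36 to 0.33. *Rarb* (chromosome 14, 17263356 to 17651381, reverse strand), whose promoter element is shown above, was at 0.538 ± 0.0567 (SD, n = 2) CPM in WT against 0.505 ± 0.168 (SD, n = 2) CPM after deletion of *Phf2*. The groups overlapped, with the *Phf2* KO libraries the lowest and the highest of the 4. The log2 fold change of -0.08 (standard error 0.45) has a 95% interval from -1.26 to 1.10, so at these counts a change of 1 log2 unit in either direction would lie within it.

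**Figure D3:**
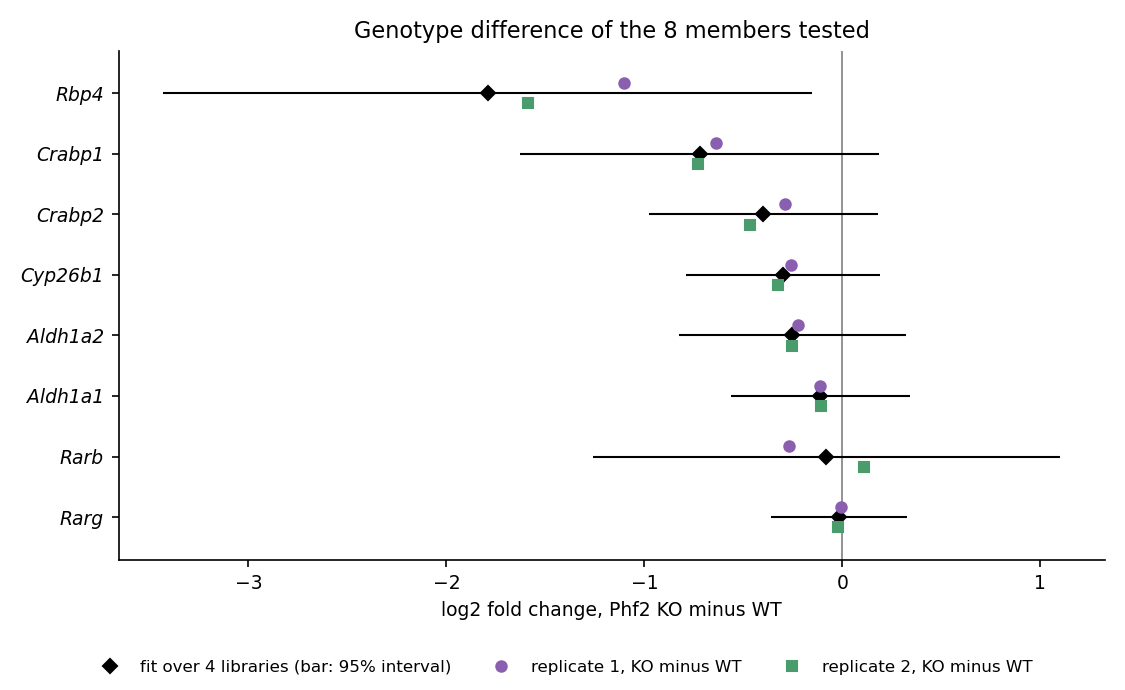
Log2 fold change of *Phf2* KO over WT for the 8 retinoid genes tested (diamonds, with bars for the 95% interval of edgeR's quasi-likelihood fit), and the difference in log2 CPM within replicate 1 (circles) and within replicate 2 (squares), for which 2 counts were added to each library. *Rbp4*, the lowest, passed the filter on low counts through the WT libraries alone, the intervals of the other 7 genes reach across 0, and *Rarb* is the 1 gene whose replicates lie on opposite sides of 0.

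Because the replicate numbers differed in sex and in macrophage markers, the genotype difference was also taken within each number, on log2 CPM with 2 counts added. Of the 8 genes tested, 7 had the lower level in *Phf2* KO MEFs within both numbers and 0 were higher within both, against 29.9% and 32.8% of all genes tested. The 7 include *Rbp4*, whose direction was fixed by the filter on low counts, so that gene adds nothing to this count. The difference was -0.64 and -0.73 for *Crabp1* in replicates 1 and 2, -0.29 and -0.47 for *Crabp2*, and -1.10 and -1.59 for *Rbp4*. It was -0.26 and -0.33 for *Cyp26b1*, -0.22 and -0.25 for *Aldh1a2*, -0.11 and -0.11 for *Aldh1a1*, and -0.01 and -0.02 for *Rarg*. *Rarb* was -0.27 and 0.11. The values of *Aldh1a1*, *Aldh1a2* and *Rarg* thus differed little between the numbers. The levels of *Aldh1a1* were higher in replicate 2 by 0.31 log2 units in WT and in *Phf2* KO, and those of *Rarg* by 0.24 and 0.22. For *Aldh1a2* this was only 0.13 and 0.10, less than its genotype difference. In both groups 7 of the 8 genes were higher in replicate 2 than in replicate 1, against 35.6% of all genes tested, by between 0.02 log2 units (*Crabp2* in *Phf2* KO) and 0.57 (*Crabp1* in WT). *Rbp4* went the other way, by -0.31 in WT and -0.80 in *Phf2* KO MEFs. The macrophage markers were lower in replicate 2 in both groups, as given above, and their part in this difference was not tested.

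The rest of the pathway was read from a list of 72 other genes of retinoid uptake, storage, oxidation, breakdown, reception and response, all of which were in the table. Of these 47 were tested, 17 had at most 3 counts in every library and 4 of those had none. By edgeR's quasi-likelihood test 0 of the 47 were called, and limma-voom called 0. At an unadjusted p-value under 0.05, 4 of the 47 were lower in *Phf2* KO MEFs and 0 were higher, against 2.67% and 1.54% of all genes tested. With 1 library left out these counts ranged from 1 to 3 lower and from 0 to 3 higher, and were 3 and 3 without WT replicate 2. Blocking edgeR on the replicate number called 12 of the 47, 6 lower and 6 higher, against the 5.20% and 5.77% given above. DESeq2 without the block called 1 (*Dhrs9*), against 0.399% of the genes to which it gave an adjusted p-value. The median log2 fold change was -0.06, with 28 genes below 0 and 19 above. Both *Phf2* KO libraries lay below both WT libraries for 14 and above for 3, against 18.0% and 15.5% of all genes tested. These 14 include *Rdh12* and these 3 include *Rdh9*. Each of these genes passed the filter on low counts through 1 group alone, so their directions were fixed. *Rdh12* is also among the 4 at an unadjusted p-value under 0.05 and the 6 called lower with the block.

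The 4 genes at an unadjusted p-value under 0.05, picked by their values in these data, were all oxidoreductases of retinol and retinal or alcohol. That class held 14 of the 47 genes tested. Of these 14, 11 had a log2 fold change below 0 and 3 above, with a median of -0.19, where 48.8% of all genes tested were below 0. *Rdh12* and *Rdh9* are among the 14 and each passed the filter through 1 group alone, which fixed their directions. *Dhrs9*, a short-chain dehydrogenase that oxidises retinol, had 264 and 206 counts per WT library against 79 and 43 per *Phf2* KO library, or 9.45 ± 2.13 (SD, n = 2) CPM against 2.80 ± 1.43 (SD, n = 2) CPM. The groups were far apart, and *Dhrs9* in *Phf2* KO MEFs stood at 29.7% of the WT level. Its log2 fold change in edgeR was -1.76 with a standard error of 0.42 (unadjusted p = 0.0104), and the adjusted p was 0.999 in edgeR and 0.0719 in DESeq2. Leaving out *Phf2* KO replicate 1 gave -2.40 and leaving out *Phf2* KO replicate 2 gave -1.31. It was among the genes called by edgeR with the block. *Rdh12*, which encodes a retinal reductase best known from photoreceptors, had 16 and 17 counts per WT library against 4 and 4 per *Phf2* KO library, a scaled ratio of 0.271 with an exact 95% interval from 0.108 to 0.599 for counting error only. *Rdh12* passed the filter through the WT libraries alone, so its direction was fixed and the interval is not read as evidence of a difference. *Adh1* is named because it was 1 of these 4 genes, after its values were seen. The alcohol dehydrogenase genes *Adh7* and *Adh1* had log2 fold changes of -0.79 (standard error 0.26) and -0.36 (standard error 0.12). Without WT replicate 1 they were -0.49 and -0.24. Without WT replicate 2 they were -1.05 and -0.47. Both genes were called by edgeR with the block. DESeq2 with the block did not call *Adh1* (adjusted p = 0.270) and gave *Adh7* no adjusted p. *Adh7* had 142 and 106 counts per WT library against 59 and 70 per *Phf2* KO library, and *Adh1* 1556 and 1449 times per WT library against 910 and 1204 times per *Phf2* KO library.

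Among the genes with values in the other direction were *Rdh9* and *Dhrs3*. *Rdh9* had 6 and 4 counts per WT library against 9 and 13 per *Phf2* KO library, passed the filter through the *Phf2* KO libraries alone, and shares 21.5% of its 50-base stretches with other genes, most with *Rdh1*. *Dhrs3*, whose product reduces retinal to retinol and limits retinoic acid, had 2896 and 2113 counts per WT library against 3262 and 3087 per *Phf2* KO library, or 100.8 ± 27.4 (SD, n = 2) CPM against 142.9 ± 20.5 (SD, n = 2) CPM. Both *Phf2* KO libraries were above both WT libraries, with a log2 fold change of 0.50 (standard error 0.22, 95% interval -0.08 to 1.09). It was 0.23 without WT replicate 2 and 0.82 without WT replicate 1. With the replicate block it was called by edgeR at 0.52 (standard error 0.083, adjusted p = 4.28e-08) and by DESeq2 at 0.53 (adjusted p = 0.00044). *Rdh10*, whose product makes the retinal used for retinoic acid in the embryo, was at 7.51 ± 0.174 (SD, n = 2) CPM in WT against 7.31 ± 0.450 (SD, n = 2) CPM after deletion of *Phf2*.

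The other receptors differed little. *Rara* was at 48.7 ± 3.03 (SD, n = 2) CPM in WT against 42.2 ± 2.05 (SD, n = 2) CPM after deletion of *Phf2*, a log2 fold change of -0.20 (standard error 0.10, 95% interval -0.47 to 0.06) with the groups not overlapping. *Rxra* and *Rxrb* had log2 fold changes of -0.04 (95% interval -0.26 to 0.17) and 0.00 (95% interval -0.22 to 0.22). *Rxrg* was counted 2 times in 1 *Phf2* KO library and in no other. Among 15 commonly cited response genes 12 were tested, with 7 below 0 and 5 above, and a median log2 fold change of -0.10. *Lrat*, the enzyme gene for storing retinol as esters, was counted at most 1 time in any library.

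**Figure D4:**
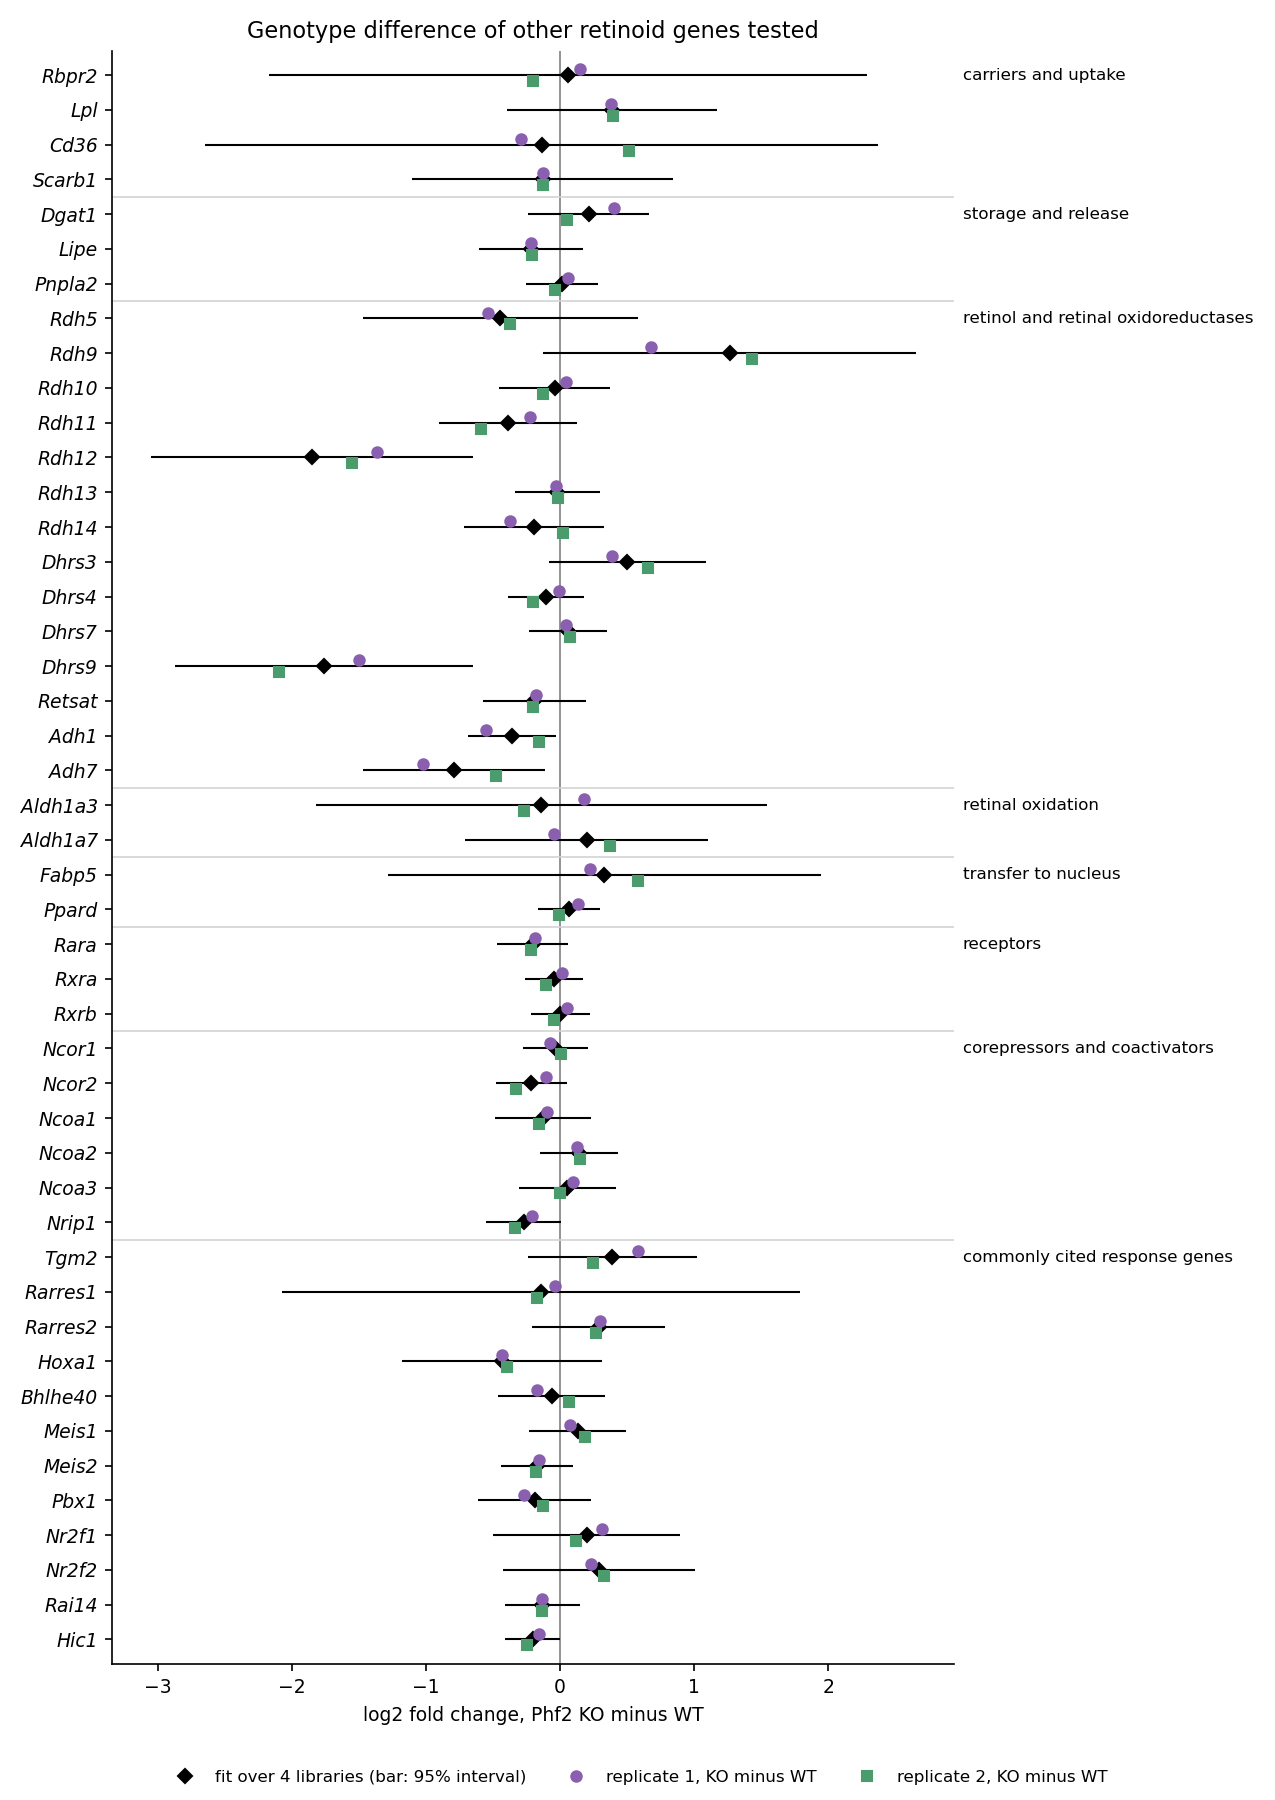
Log2 fold change of *Phf2* KO over WT for other retinoid genes tested, grouped by role (diamonds, with bars for the 95% interval of edgeR's quasi-likelihood fit), and the difference in log2 CPM within replicate 1 (circles) and within replicate 2 (squares), with 2 counts added. The intervals of *Dhrs9*, *Rdh12*, *Adh7* and *Adh1* lie below 0 (*Rdh12* passed the filter on low counts through the WT libraries alone), and those of the other genes drawn reach 0 or lie on both sides of it.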

How the data were processed

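RNA-seq counts of 2 WT and 2 *Phf2* KO libraries were analysed, grouped by their GEO titles. The authors trimmed single 50-base reads with Trim Galore, removed ribosomal RNA with bowtie2, aligned to MGSCv37 (mm9) with STAR as reverse stranded, and counted reads per gene with featureCounts, with no versions or annotation release given in the sources used here. The counts were deposited raw, as whole reads per gene symbol. The table of the authors' own DESeq2 comparison was not used. Library totals, between 21094743 and 26094268 counts, set the precision of low genes.

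Genes were filtered with filterByExpr, which needed 10 counts at the median library size (0.42 CPM) in 2 libraries, scaled by TMM, and tested with glmQLFit and glmQLFTest in edgeR 4.0.16 (R 4.3.3), with genotype as the only term and Benjamini-Hochberg adjustment over 13668 genes at 0.1. Standard errors and 95% intervals come from the F statistic and its degrees of freedom. The fit was checked on simulated counts with known changes. These were drawn with a common dispersion and no difference between replicate numbers, so the check does not cover that feature of the data. Alternatives were DESeq2 1.42.0, limma 3.58.1 (voom), RLE or library size scaling, other filters, thresholds of 0.05 and 0.01, the replicate number as a block, leaving out each library and, added after the data were seen, DESeq2 with the block. Gene positions and exon lengths came from GENCODE vM1 on NCBIM37, and promoters from RefSeq. Figures used Python 3.11.15 and Matplotlib 3.10.9.

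The 9 genes and the lists were chosen with earlier results of these data known. Genes named beyond the 9 are *Phf2*, the receptors, aldehyde dehydrogenases, Cyp26 genes, *Rdh10*, *Dhrs3* and *Lrat*, called genes, the 3 largest changes in each direction, and the 3 genes nearest to *Rbp4*. One gene of the wider list, though counted with it, is not reported here by name. Markers of other cell types were read as summed CPM.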

Additional observations from a re-analysis of the deposited data

How the results depend on the processing

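Without a replicate block, 0 of the 9 retinoid genes were called by any tool, scaling, filter or threshold, and with each library left out the count was 0. Over all genes tested, 1 gene was called by edgeR's quasi-likelihood test, 64 by DESeq2 (205 higher and 273 lower at an unadjusted p-value under 0.05), 0 by limma-voom (223 and 352), 0 at 0.05 or 0.01 (211 and 365) and between 0 and 0 with 1 library left out (between 56 and 377 higher and between 157 and 378 lower). Of the 72 other retinoid genes DESeq2 called 1. Without WT replicate 2 and without *Phf2* KO replicate 1 the log2 fold changes turned to 0.02 and 0.21 for *Rarb*, 0.0939 and 0.09 for *Rarg*, and 0.0382 and 0.04 for *Aldh1a1*. With each library left out they ranged from -0.48 to 0.21 for *Rarb*, from -0.13 to 0.09 for *Rarg* and from -0.28 to 0.04 for *Aldh1a1*, while the other 5 stayed below 0 under each alternative run for them. *Rbp4* and *Rarb* did not pass the filter of 1 CPM in 2 libraries and have no value there. The cause of the difference between tools was not tested. Genes under about 10 counts, *Stra6* and *Cyp26a1* among them, are limited by depth.

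In edgeR's fit with a replicate block, 1500 genes were called over all (11.0%), 2 of the 8 retinoid genes tested, both lower, and 12 of the 47 others tested, 6 higher and 6 lower. The 2 were *Crabp1* (log2 fold change -0.72, standard error 0.25, adjusted p = 0.0470) and *Rbp4* (-1.79, standard error 0.63). *Rbp4* was in the test through the WT libraries alone, so its direction was fixed by the filter and its p-value is not read. Lower calls made up 5.20% of all genes tested in that fit. *Dhrs9*, *Rdh12*, *Adh7*, *Adh1*, *Rdh11* and *Nrip1* were lower, and *Dhrs3*, *Lpl*, *Fabp5*, *Tgm2* and *Nr2f2* were among those higher. *Rdh12*, too, was in the test through the WT libraries alone, so its direction was fixed. DESeq2 with the block, added after the data were seen, called 297 genes, or 3.67% of the genes it adjusted. It called 0 of the 9, of which it gave only *Rarg* and *Aldh1a1* an adjusted p. Of the 72 it called 4, all 4 higher. It did not adjust all of the 72, so this count and the share of 3.67% have unlike bases. DESeq2 with the block gave *Dhrs9*, *Adh7* and *Rdh12* no adjusted p, so these genes could not be called, and it did not call *Adh1* (adjusted p = 0.270). For *Crabp1* its log2 fold change was -0.71 with a standard error of 0.51 (unadjusted p = 0.159). Replicates 1 and 2 differed alike in WT and *Phf2* KO MEFs across 11556 genes (Pearson's r = 0.855, across genes, which are not independent replicates). The labels state no pairing. By the labels the libraries of one number share that number, and the identifiers that end their descriptions are consecutive.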

Other observations

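Some retinoid genes differed between the replicate numbers far more than between genotypes, and these were picked after their values were seen. *Aldh1a3* was higher in replicate 2 than in replicate 1 by 1.53 log2 units in WT and 1.08 in *Phf2* KO MEFs. *Rarres1*, named for its induction by retinoids, had 29 counts in replicate 1 and 95 in replicate 2 of WT, against 24 and 78 in *Phf2* KO. *Fabp5*, which carries retinoic acid to Ppard, went the other way and was lower in replicate 2 by -1.48 in WT and -1.12 in *Phf2* KO MEFs. *Cd36*, a scavenger receptor common on macrophages, had 1879 and 361 counts in WT against 1320 and 479 in *Phf2* KO, in the same order. The macrophage markers were also lower in replicate 2, and their part in these differences was not tested.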
